A study of Mus musculus with 3 samples.

Results

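Hox genes encode homeodomain transcription factors that specify position along the head-to-tail axis of the embryo. The 39 described here are all protein-coding genes of the count table named Hox, a cluster letter from a to d and a number, of 56748 genes listed. The number of a Hox gene is its paralogous group, the set of genes in different clusters that descend from the same ancestral gene. This rule uses names and no measured value, though it was chosen with earlier results of these data known.

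Mammalian Hox genes lie in 4 clusters, and their order along the chromosome follows the order in which they are used along the body axis, low numbers towards the head and high numbers towards the tail. Adult fibroblasts keep part of the pattern set in the embryo, so that the combination of active and silent Hox genes differs between anatomical sites and is often called a positional code. Silent Hox genes are held by Polycomb complexes, active ones by Trithorax complexes. Retinoic acid is a classical inducer of the head-side genes, and proteins of the Pbx, Meis and Pknox families bind DNA together with Hox proteins.

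The cells were fibroblasts of the visceral fat of wild-type mice fed a high-fat diet. They came from the stromal vascular fraction, the part of fat tissue without mature adipocytes, by magnetic sorting for cells without CD45, CD31 and Ter119. One culture received recombinant mouse oncostatin M (Osm) at 3 ng/mL for 24 h, another recombinant human TGF-beta1 (transforming growth factor beta 1) at 3 ng/mL for 24 h, and the third was the vehicle control, whose time is not stated. Osm belongs to the interleukin 6 family of cytokines and acts through gp130 and Stat3. TGF-beta1, an inducer of matrix genes, acts through Smad proteins. All 3 cultures shared the wild-type genotype, the diet, the depot and the sort. The labels used here do not give the sex, age or number of the mice, or whether they were pooled. Each condition had 1 library, so none of the differences given here could be checked in a replicate. Intervals are exact at 95% and cover counting error alone, and reads without molecular identifiers are not independent molecules.

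The Osm, TGF-beta1 and vehicle libraries held 17319872, 18533741 and 18336068 counted reads. Levels are given as CPM, read counts scaled to library size, and a gene with 0 counts could still lie at up to 0.173, 0.163 and 0.163 CPM in these libraries (3 counts). All 7 fibroblast markers were detected, with a summed level of 18472 CPM with Osm, 21195 CPM with TGF-beta1 and 18203 CPM with vehicle. With TGF-beta1 Col1a1 and Col1a2 were higher than with vehicle and the other 5 lower, Dcn with a ratio of 0.415 (0.407 to 0.423). Leukocyte markers (8 genes) summed to 15.9, 14.8 and 18.6 CPM in the Osm, TGF-beta1 and vehicle libraries with Itgam and Cd3e at 0. Most of that was Csf1r, at 8.41, 10.2 and 8.48 CPM, and Cd68, at 6.68, 3.69 and 8.91 CPM. Cd68 was lower with TGF-beta1 than with vehicle (ratio 0.414, 0.307 to 0.552). Endothelial markers (6 genes) summed to 40.3, 35.8 and 50.1 CPM in the same order with Cldn5 and Tie1 at 0. All 6 erythroid markers were at 0. Mesothelial markers (8 genes) summed to 41.9 CPM with Osm, 51.7 CPM with TGF-beta1 and 43.2 CPM with vehicle. Most of that was Wt1, at 36.1, 43.4 and 37.1 CPM in the same order. Mural cell markers (7 genes) summed to 50.4, 117.8 and 51.1 CPM in the same order, of which Cspg4 made 74.9 CPM with TGF-beta1. Of the endothelial markers, Tek made most of the sum, at 38.9 CPM with Osm, 34.4 CPM with TGF-beta1 and 48.5 CPM with vehicle, and its part in the results was not tested. Both ligands left a mark on genes known to respond to them. Socs3, a feedback inhibitor of gp130 signalling, was 1.6-fold higher with Osm than with vehicle (1.48 to 1.74), and the smooth muscle actin gene Acta2 was 2.98-fold higher with TGF-beta1 than with vehicle (2.90 to 3.05). In bulk RNA, fewer cells that express a gene and less of its RNA per cell cannot be told apart.

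The fibroblasts of all 3 cultures carried the same broad Hox pattern: genes of the middle paralogous groups 4 to 8 were on in every cluster, and the tail-side genes were low or at 0. In Hoxd this held for Hoxd8 but not Hoxd4, and Hoxd8 and Hoxd9 were the only Hoxd genes that reached 1 CPM. Of the 39 genes, 24 reached 1 CPM in at least 1 library, 14 reached 5 CPM, and 5 had no count in any library. Those 5 were Hoxb1, Hoxc12, Hoxd1, Hoxd11 and Hoxd12. Of the 15 genes of groups 4 to 8, 14 reached 1 CPM and 10 reached 5 CPM. Of the 8 genes of groups 1 to 3, 5 reached 1 CPM and 3 reached 5 CPM, namely Hoxa3, Hoxb2 and Hoxb3. Of the 16 genes of groups 9 to 13, 5 reached 1 CPM, and Hoxc9 was the one that reached 5 CPM. The highest-numbered gene at 1 CPM or more was Hoxa10 in the Hoxa cluster, Hoxb8 in Hoxb, Hoxc10 in Hoxc and Hoxd9 in Hoxd. No gene numbered 11, 12 or 13 reached 1 CPM in any library. The stretch at 1 CPM or more thus ended at a number from 8 to 10 in each cluster.

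Levels between genes were compared per transcript length, as the authors' FPKM. The members summed to 125 FPKM with Osm, 129 FPKM with TGF-beta1 and 125 FPKM with vehicle. Groups 4 to 8 made up 84.5% of that sum with Osm, 84.4% with TGF-beta1 and 86.9% with vehicle. The Hoxc cluster alone made up 47.5% of it with Osm, 50.5% with TGF-beta1 and 48.6% with vehicle. In the same order of libraries, Hoxa gave 23.2%, 21.8% and 21.9%, Hoxb gave 22.7%, 21.3% and 23.0%, and Hoxd gave 6.64%, 6.31% and 6.47%. The pattern was thus led by Hoxc in each library, while Hoxd contributed little beyond Hoxd8. Against protein-coding genes in general, 8 members lay above the median level of those at 1 CPM or more, which was 5.84 FPKM with Osm, 5.89 FPKM with TGF-beta1 and 5.83 FPKM with vehicle. In the Osm and vehicle libraries the first 6 members by FPKM came in the same order, Hoxc6, Hoxc8, Hoxa5, Hoxb6, Hoxa7 and Hoxb7. In the TGF-beta1 library Hoxc8 stood before Hoxc6, Hoxc4 came next after Hoxa5, and Hoxa7 stood behind Hoxb7 and Hoxd8.

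**Figure D1:**
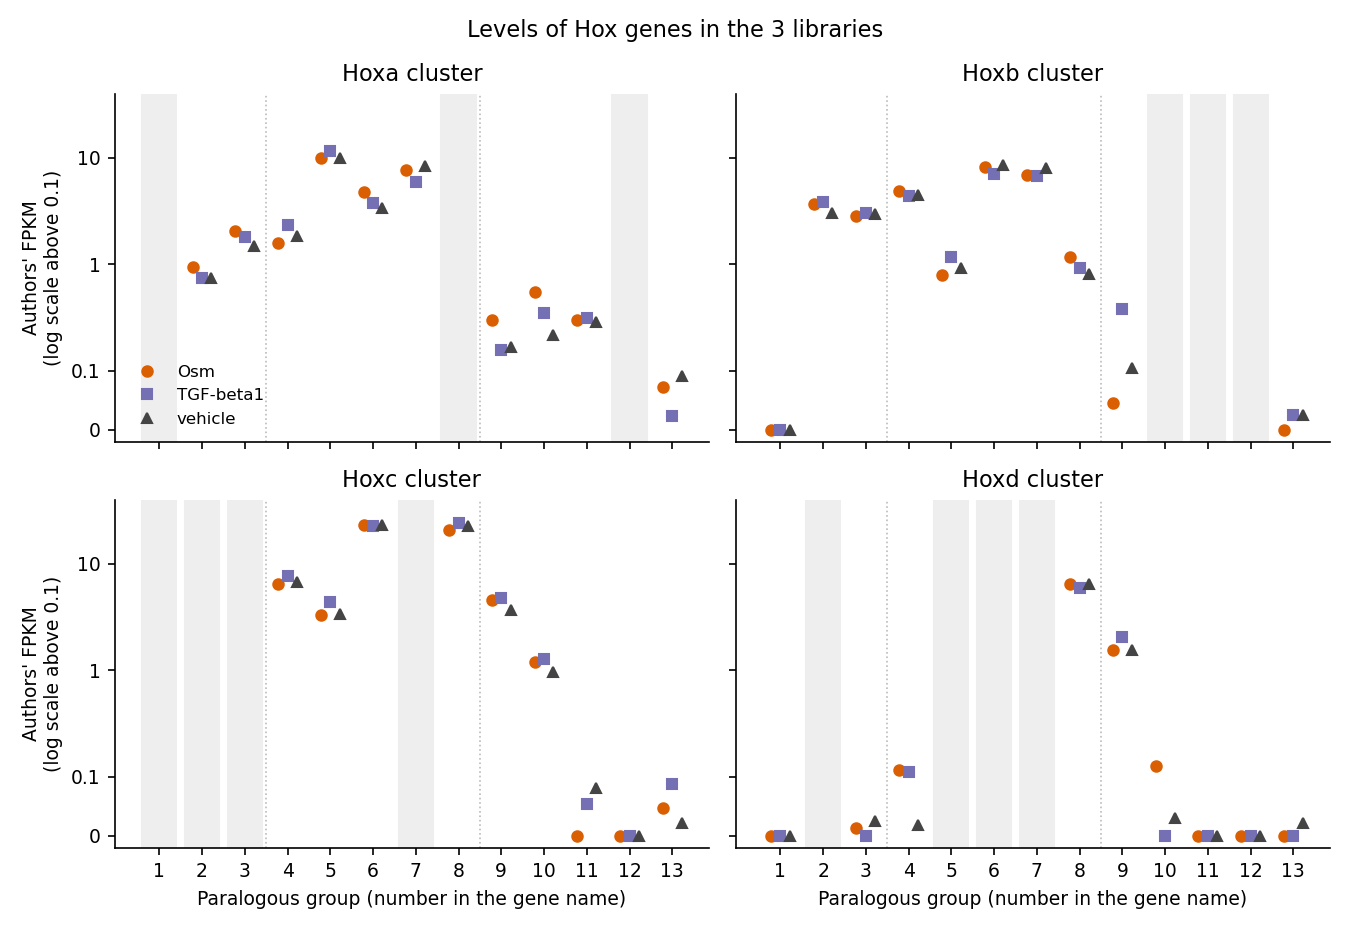
Levels of 38 of the Hox genes in the Osm, TGF-beta1 and vehicle libraries, 1 point per library, by cluster (panels) and paralogous group (horizontal axis). The vertical axis is the authors' FPKM, linear below 0.1 and logarithmic above. Grey bars mark numbers for which no gene is plotted in that cluster, and dotted lines separate groups 1 to 3, 4 to 8 and 9 to 13. Levels are highest in the middle of each cluster and near 0 at its right end, and the 3 points of an expressed gene lie close together.

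Hoxc6 and Hoxc8, which in the mouse embryo are active at thoracic levels, were the 2 highest members by FPKM. Hoxc6 (chromosome 15, 102906689 to 102920313, build mm39) stood at 23.3 FPKM with Osm, 22.6 FPKM with TGF-beta1 and 23.2 FPKM with vehicle, or 56.2, 54.3 and 55.8 CPM. The 3 libraries were within counting error of each other for this gene, with a ratio of CPM of 1.01 for Osm over vehicle (0.922 to 1.1) and 0.972 for TGF-beta1 over vehicle (0.890 to 1.06). Hoxc8 (102899039 to 102902543) stood at 20.7 FPKM with Osm, 24.1 FPKM with TGF-beta1 and 22.6 FPKM with vehicle, or 58.8, 68.1 and 63.9 CPM. The vehicle library lay between the other two, and the ratio of CPM was 0.920 for Osm over vehicle (0.845 to 1.00) and 1.07 for TGF-beta1 over vehicle (0.983 to 1.15).

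Hoxa5, a regulator of lung and neck development in the mouse, followed at 9.82 FPKM with Osm, 11.6 FPKM with TGF-beta1 and 9.97 FPKM with vehicle (chromosome 6, 52178734 to 52181567). In CPM it was at 18.5 with Osm, 21.8 with TGF-beta1 and 18.7 with vehicle, with a ratio of 0.989 for Osm over vehicle (0.847 to 1.16) and 1.16 for TGF-beta1 over vehicle (1.01 to 1.35). Its 2 lower libraries were nearly equal and the TGF-beta1 library stood just above them. In the same cluster Hoxa7 (52191471 to 52198834) was at 7.61 FPKM with Osm, 5.90 FPKM with TGF-beta1 and 8.34 FPKM with vehicle. In CPM Hoxa7 was at 22 with Osm, 16.9 with TGF-beta1 and 24.0 with vehicle, with a ratio of 0.916 for Osm over vehicle (0.797 to 1.05) and 0.706 for TGF-beta1 over vehicle (0.609 to 0.818). That was the lowest ratio of TGF-beta1 over vehicle among the members at 1 CPM or more, and the TGF-beta1 library was the low one.

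In the Hoxb cluster on chromosome 11, Hoxb6 and Hoxb7 were the highest by FPKM. Hoxb6 (96183302 to 96192395) was at 16.2 CPM with Osm, 13.7 CPM with TGF-beta1 and 16.7 CPM with vehicle, with ratios of 0.967 for Osm over vehicle (0.820 to 1.14) and 0.817 for TGF-beta1 over vehicle (0.689 to 0.968). Hoxb7 (96177449 to 96180988) was at 10.6 CPM with Osm, 10.4 CPM with TGF-beta1 and 12.4 CPM with vehicle, with ratios of 0.856 for Osm over vehicle (0.701 to 1.04) and 0.836 for TGF-beta1 over vehicle (0.686 to 1.02). Hoxa7, Hoxb6 and Hoxb7 were thus all lower in the TGF-beta1 library than in the vehicle library, with the interval of Hoxb7 reaching past 1. Hoxb4 (96209093 to 96212464), which is known for its use in expanding blood stem cells, was at 12.5 CPM with Osm, 11.1 CPM with TGF-beta1 and 11.4 CPM with vehicle. Its ratios of 1.1 for Osm over vehicle (0.906 to 1.34) and 0.974 for TGF-beta1 over vehicle (0.800 to 1.19) were within counting error.

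Hoxc4 and Hoxc5 are the head-side genes of the Hoxc cluster. Hoxc4 (chromosome 15, 102927366 to 102945278) was at 16.8 CPM with Osm, 19.7 CPM with TGF-beta1 and 17.4 CPM with vehicle, with ratios of 0.961 for Osm over vehicle (0.817 to 1.13) and 1.13 for TGF-beta1 over vehicle (0.972 to 1.32). Hoxc5 (102875878 to 102925861) was at 10.1 CPM with Osm, 13.6 CPM with TGF-beta1 and 10.3 CPM with vehicle, with ratios of 0.982 for Osm over vehicle (0.796 to 1.21) and 1.31 for TGF-beta1 over vehicle (1.08 to 1.59). For both genes the TGF-beta1 library was the highest of the 3, and for Hoxc5 the interval of its ratio to vehicle lay above 1. The annotated span of Hoxc5 covers Hoxc6, Hoxc8 and Hoxc9 and part of Hoxc10 on the same strand. In reference transcripts 6.45% of the sampled 50-base windows of Hoxc10 also occur in Hoxc5, so reads from that stretch are uncertain in both genes. Hoxd8 (chromosome 2, 74534959 to 74538277), the one Hoxd gene above 5 CPM, was at 17.9 CPM with Osm, 16.3 CPM with TGF-beta1 and 17.7 CPM with vehicle. Its ratios of 1.01 for Osm over vehicle (0.866 to 1.19) and 0.925 for TGF-beta1 over vehicle (0.788 to 1.08) were within counting error.

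Of the head-side groups 1 to 3, Hoxa3, Hoxb2 and Hoxb3 were the members at 5 CPM or more. Their products pattern the hindbrain and the pharyngeal region in the mouse embryo. Hoxa3 (chromosome 6, 52146042 to 52190316) was at 12.3 CPM with Osm, 10.7 CPM with TGF-beta1 and 8.91 CPM with vehicle, with ratios of 1.38 for Osm over vehicle (1.12 to 1.70) and 1.2 for TGF-beta1 over vehicle (0.970 to 1.48). Hoxb2 (chromosome 11, 96241351 to 96244838) was at 12.9 CPM with Osm, 13.5 CPM with TGF-beta1 and 10.5 CPM with vehicle, with ratios of 1.23 for Osm over vehicle (1.01 to 1.5) and 1.28 for TGF-beta1 over vehicle (1.06 to 1.56). Vehicle was the lowest library for both. Hoxb3 (96214152 to 96238756) was level at 12.1 CPM with Osm, 12.8 CPM with TGF-beta1 and 12.4 CPM with vehicle, with ratios of 0.972 for Osm over vehicle (0.802 to 1.18) and 1.03 for TGF-beta1 over vehicle (0.854 to 1.24). These 3 genes overlap antisense transcripts: 21.1% of the sampled windows of Hoxa3, 57% of Hoxb2 and 54.8% of Hoxb3 occur in a reference transcript of the opposite strand. The sources used here do not say whether strand was used in counting, so reads from the 2 strands cannot be told apart. Hoxa3 also shared 8.77% of its windows with Gm28308, a gene with 0 counts in all 3 libraries.

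Among the tail-side groups 9 to 13, Hoxc9 was the one member at 5 CPM or more. Hoxc9 (chromosome 15, 102884874 to 102893531) was at 11.2 CPM with Osm, 11.7 CPM with TGF-beta1 and 8.97 CPM with vehicle, with ratios of 1.25 for Osm over vehicle (1.01 to 1.54) and 1.3 for TGF-beta1 over vehicle (1.06 to 1.6). Vehicle was the lowest library. Per length, Hoxc9 was at 4.58 FPKM with Osm, 4.81 FPKM with TGF-beta1 and 3.69 FPKM with vehicle, and Hoxa10 at 0.544, 0.349 and 0.216 FPKM. Hoxa10, which in the mouse is required in the uterus and for the lumbar spine, had 31 counts with Osm, 21 counts with TGF-beta1 and 13 counts with vehicle (chromosome 6, 52208177 to 52217834). In CPM that was 1.79 with Osm, 1.14 with TGF-beta1 and 0.706 with vehicle, a ratio of 2.53 for Osm over vehicle (1.29 to 5.26) and 1.61 for TGF-beta1 over vehicle (0.771 to 3.51). Hoxa10 was the one member that passed the 2-fold rule, and it did so on few reads. Its vehicle level was under the filter of 1 CPM, which it met with Osm and with TGF-beta1. Hoxb9 stayed under 1 CPM everywhere, with 2 counts with Osm, 18 counts with TGF-beta1 and 5 counts with vehicle, and it was named after its values were seen. Its ratio of TGF-beta1 over vehicle was 3.59 (1.29 to 12.4), and because of its low level it is not among the 24 members compared below, though its reads are in the sums. The other 9 members with some reads but under 1 CPM were Hoxa11, Hoxa13, Hoxb13, Hoxc11, Hoxc13, Hoxd3, Hoxd4, Hoxd10 and Hoxd13, with at most 13 counts each. For Hoxd3 and Hoxd4, which overlap, 84.3% and 48.9% of the windows are shared with another gene, so their few reads are uncertain.

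The clusters also hold microRNA genes of the families miR-10 and miR-196, which are known to act on Hox messages. The mature sequences below, from RefSeq (build GRCm38.p6), are shown because they are encoded between the measured genes; capitals mark the seed, the stretch that pairs with target messages.
mmu-miR-10a-5p: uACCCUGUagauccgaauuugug
mmu-miR-10b-5p: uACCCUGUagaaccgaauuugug
mmu-miR-196a-5p: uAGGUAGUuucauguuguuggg
mmu-miR-196b-5p: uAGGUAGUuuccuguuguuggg
Within each family the seed is the same, and the mature forms differ at 1 base, U12A for miR-10a and miR-10b and A12C for miR-196a and miR-196b, counted from the 5′ end. The gene of miR-10a lies in Hoxb, that of miR-10b in Hoxd and that of miR-196b in Hoxa, and miR-196a has a copy in Hoxb and another in Hoxc. Polyadenylated RNA libraries do not measure mature microRNAs, and these 5 loci had 0 counts in all 3 libraries except Mir10a with 5 counts with Osm, 5 counts with TGF-beta1 and 0 counts with vehicle. Hoxb8 is the textbook target of miR-196, whose site in the mouse Hoxb8 message (chromosome 11) pairs along its whole length and leads to cleavage in the embryo. The site read from the reference transcripts is printed with Watson-Crick pairs in capitals and the G:U pair in lower case.
Hoxb8 site for miR-196a: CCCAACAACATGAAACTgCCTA
All 22 bases pair, 21 of them as Watson-Crick pairs, and the next best window among the 39 members had 19 paired bases. Hoxb8 itself was at 1.15 FPKM with Osm, 0.928 FPKM with TGF-beta1 and 0.805 FPKM with vehicle. In the same order, its neighbour Hoxb7 was at 6.84, 6.72 and 8.03 FPKM and its neighbour Hoxb9 at 0.045, 0.380 and 0.106 FPKM. Hoxb5, whose best window had 16 paired bases, was at 0.783, 1.17 and 0.917 FPKM. Whether miR-196 had a part in these levels was not tested. The 7-base match to the miR-196 seed, ACTACCT, was found after the stop codon of 9 of 39 members (among them Hoxa4, Hoxa5, Hoxa7, Hoxa9, Hoxb1, Hoxb6, Hoxb7 and Hoxc8), against 6.55% of 21020 genes. The match to the miR-10 seed, ACAGGGT, was found in 4 of 39 members (among them Hoxa3, Hoxb3 and Hoxd1), against 13.1% of genes. Only the message strand was searched. The 9 members with a miR-196 match included Hoxc8, Hoxa5, Hoxb6, Hoxa7 and Hoxb7, all among the 6 highest by FPKM in the Osm and vehicle libraries. They also included Hoxb1 with 0 counts in every library. Hoxa9, at 0.298, 0.156 and 0.166 FPKM with Osm, TGF-beta1 and vehicle, had a match as well. So did Hoxa4, at 1.58, 2.35 and 1.84 FPKM in the same order. A link between match and level was not tested.

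Compared with vehicle, Osm left the well-expressed Hox genes near their vehicle levels. Of the 24 members at 1 CPM or more, 1 was at least 2-fold higher, Hoxa10, against 0.948% of all genes at that level, and none was at least 2-fold lower, against 0.649%. A gene was called where its log2 ratio, computed with 0.5 added to each count, was at least 1 in size and the interval of the ratio excluded 1. At 1.5-fold the count was the same, against 3.76% of all genes in either direction. The median log2 ratio of the 24 members was 0.02 and that of all 13712 genes at 1 CPM or more was 0.002. Of the 14 members at 5 CPM or more, 11 were within 1.2-fold of vehicle, a share of 78.6%, against 88.4% of all genes at that level. The 3 outside were Hoxa3, Hoxb2 and Hoxc9, all higher with Osm. In all, the interval lay above 1 for 4 of the 24 members, these 3 and Hoxa10, against 10.9% of all genes, and below 1 for none, against 10.6%.

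Compared with vehicle, TGF-beta1 gave no 2-fold difference in any of the 24 members, against 7.06% of all genes at 1 CPM or more. No member passed at 1.5-fold either, against 15.5% of all genes. The median log2 ratio of the 24 members was 0.19, beside 0.01 for all genes, and that of the 14 members at 5 CPM or more was 0.07, beside 0.03. Of these 14, 9 were within 1.2-fold of vehicle, a share of 64.3%, against 59.5% of all genes at that level. The 5 outside were Hoxa7 and Hoxb6, lower with TGF-beta1, and Hoxb2, Hoxc5 and Hoxc9, higher. The interval lay above 1 for 4 of the 24 members, Hoxa5, Hoxb2, Hoxc5 and Hoxc9, against 27.8% of all genes. It lay below 1 for 2, Hoxa7 and Hoxb6, against 24.2%. Both comparisons share the vehicle library, so the members that were higher in both, Hoxb2 and Hoxc9, are not seen against 2 separate controls.

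**Figure D2:**
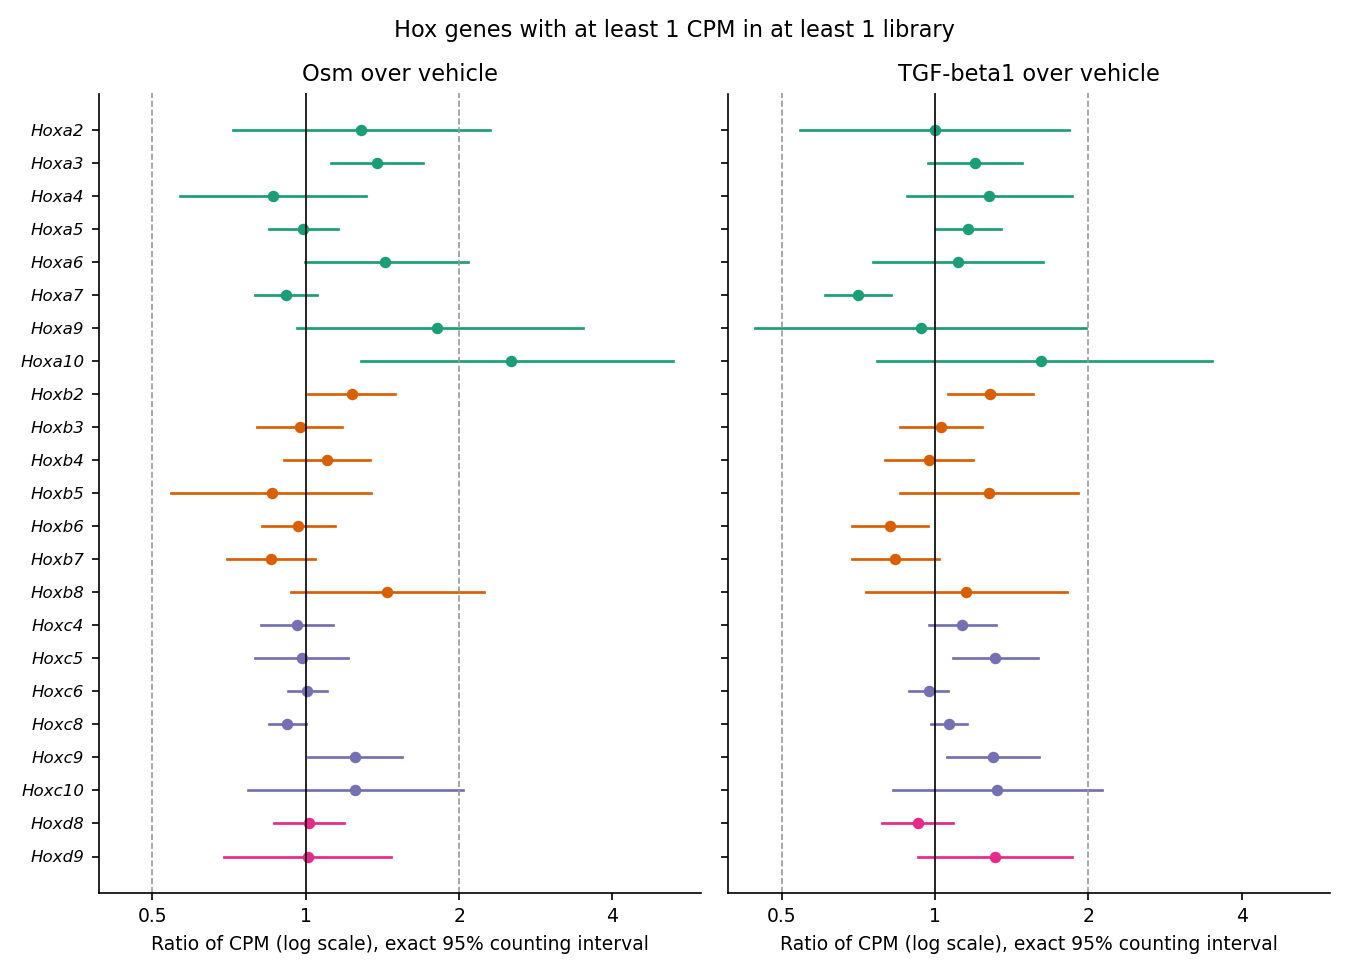
Ratio of CPM for 23 Hox genes at 1 CPM or more in any library, Osm over vehicle (left) and TGF-beta1 over vehicle (right), on a logarithmic axis, with colours by cluster. Points are ratios, bars are exact 95% counting intervals, the solid line marks a ratio of 1 and the dashed lines 2-fold. Hoxa10 with Osm is the point past the 2-fold line, with an interval of 1.29 to 5.26, and Hoxa7 has the lowest ratio with TGF-beta1, 0.706.

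**Figure D3:**
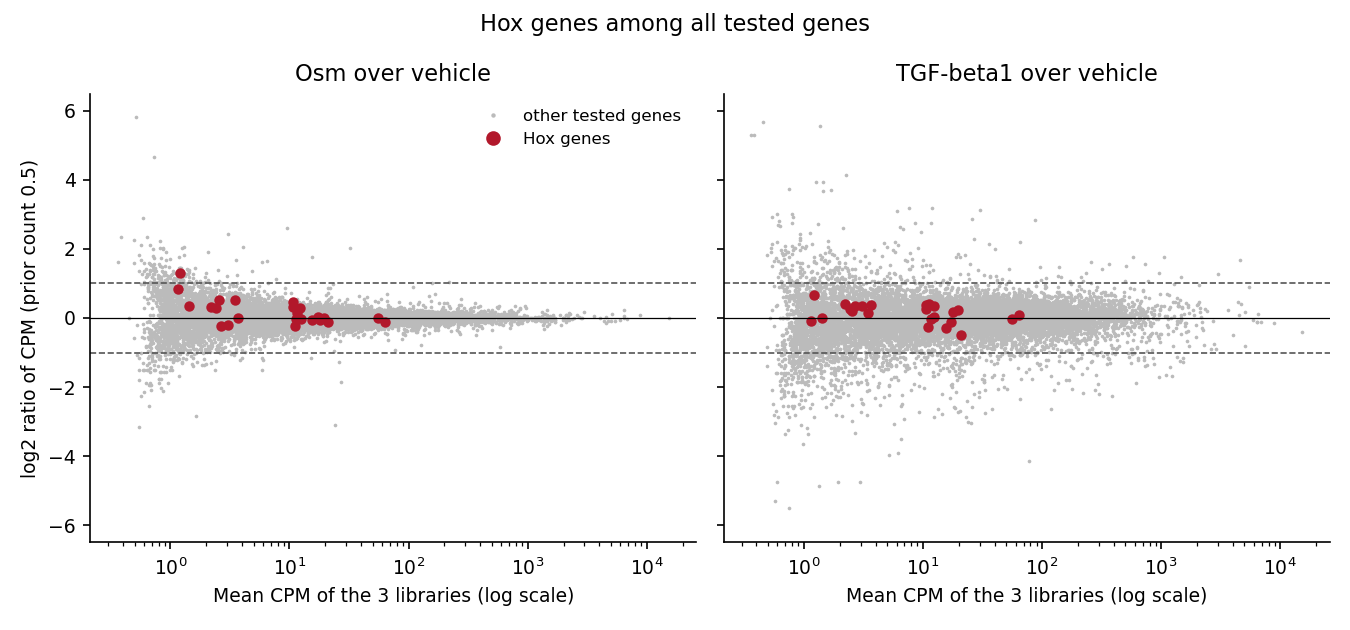
Log2 ratio of CPM (with 0.5 added to each count) against the mean CPM of the 3 libraries on a logarithmic axis, for all 13712 genes at 1 CPM or more (grey) and the 24 Hox genes among them (red). The panels show Osm over vehicle (left) and TGF-beta1 over vehicle (right), and the dashed lines mark 2-fold. Hoxa10 with Osm is the one red point past a dashed line. The 2-fold rule, which also requires the interval to exclude 1, was passed by 1.6% of all genes with Osm and 7.06% with TGF-beta1.

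Set directly against each other, the Osm and TGF-beta1 libraries differed in a few Hox genes by less than 2-fold. No member of 24 passed the 2-fold rule for Osm over TGF-beta1, against 7.49% of all genes. At 1.5-fold Hoxa9 was the one called, with 29 counts with Osm and 16 counts with TGF-beta1, beside 17 counts with vehicle, against 9.93% of all genes called higher. Its ratio of Osm over TGF-beta1 was 1.93 (1.01 to 3.79). Hoxa9 reached 1 CPM with Osm alone, at 1.67 CPM, beside 0.868 CPM with TGF-beta1 and 0.924 CPM with vehicle. The library where it was high was thus the one that admitted it. The interval lay above 1 for 2 of the 24 members, Hoxa9 and Hoxa7, the second with a ratio of 1.3 (1.11 to 1.51), against 24.6% of all genes. It lay below 1 for 4, against 26.6%. Hoxa5 (0.850, 0.732 to 0.987), Hoxc4 (0.849, 0.725 to 0.993), Hoxc5 (0.748, 0.613 to 0.910) and Hoxc8 (0.863, 0.794 to 0.938) were lower with Osm than with TGF-beta1. Of the 14 members at 5 CPM or more, 12 were within 1.2-fold, Hoxa7 and Hoxc5 being the 2 outside, a share of 85.7%, against 59.9% of all genes at that level.

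Summed over all 39 genes, the Hox counts came to 315.2 CPM with Osm, 322.2 CPM with TGF-beta1 and 311.6 CPM with vehicle. The ratio of the sums was 1.01 for Osm over vehicle (0.975 to 1.05) and 1.03 for TGF-beta1 over vehicle (0.997 to 1.07), so the total did not differ beyond counting error. By cluster, the sum of Hoxc was 155.5 CPM with Osm, 170.1 CPM with TGF-beta1 and 158.5 CPM with vehicle, a ratio of 1.07 for TGF-beta1 over vehicle (1.02 to 1.13) and 0.914 for Osm over TGF-beta1 (0.868 to 0.963). The other clusters stayed within counting error of vehicle, with ratios from 0.988 to 1.07. By position, the middle groups 4 to 8 had ratios of 0.973 for Osm over vehicle (0.934 to 1.01) and 1.00 for TGF-beta1 over vehicle (0.960 to 1.04). The sums of the 2 ends lay above vehicle in both treated libraries. Groups 1 to 3 summed to 41.6 CPM with Osm, 40.8 CPM with TGF-beta1 and 35.4 CPM with vehicle, with ratios of 1.18 for Osm over vehicle (1.06 to 1.31) and 1.15 for TGF-beta1 over vehicle (1.04 to 1.28). Groups 9 to 13 summed to 21.6 CPM with Osm, 22.6 CPM with TGF-beta1 and 17.3 CPM with vehicle, with ratios of 1.25 for Osm over vehicle (1.07 to 1.46) and 1.31 for TGF-beta1 over vehicle (1.13 to 1.52). Not every member at the ends had a ratio above 1, and Hoxc9 alone gave 11.2 of the 21.6 CPM of groups 9 to 13 with Osm. Hoxb3 had a ratio of 0.972 with Osm, Hoxa2 of 0.998 with TGF-beta1 and Hoxa9 of 0.940 with TGF-beta1. These pairs of ratios share 1 vehicle library, whose own spread was not measured.

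**Figure D4:**
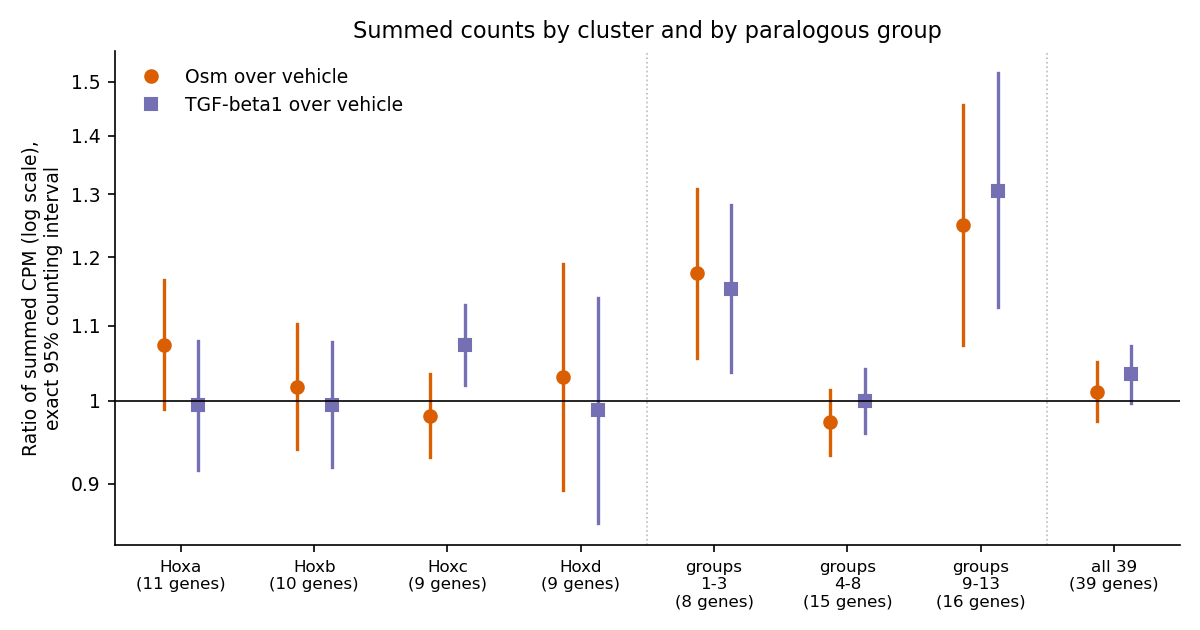
Ratio of summed CPM to the vehicle library, on a logarithmic axis, for the 4 clusters, the paralogous groups 1 to 3, 4 to 8 and 9 to 13, and all 39 genes. Circles are Osm over vehicle, squares TGF-beta1 over vehicle, and bars are exact 95% counting intervals. The middle groups lie at 1, with both end groups above it, at 1.18 and 1.15 for groups 1 to 3 and at 1.25 and 1.31 for groups 9 to 13.

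Hoxa5 and Hoxa7, of the same cluster, lay on opposite sides of vehicle in the TGF-beta1 library, and their promoters were compared. The 250 bases before a RefSeq start site of each gene (build GRCm38.p6, chromosome 6, minus strand) are printed. Each CG pair, the dinucleotide that can be methylated, is in capitals. The positions are chr6:52204588-52204837 for Hoxa5 and chr6:52218574-52218823 for Hoxa7.
Hoxa5: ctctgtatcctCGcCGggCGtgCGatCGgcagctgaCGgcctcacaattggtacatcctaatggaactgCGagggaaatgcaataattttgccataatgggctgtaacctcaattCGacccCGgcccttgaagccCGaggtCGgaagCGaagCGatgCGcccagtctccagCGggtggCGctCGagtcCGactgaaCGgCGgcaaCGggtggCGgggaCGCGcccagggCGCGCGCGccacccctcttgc
Hoxa7: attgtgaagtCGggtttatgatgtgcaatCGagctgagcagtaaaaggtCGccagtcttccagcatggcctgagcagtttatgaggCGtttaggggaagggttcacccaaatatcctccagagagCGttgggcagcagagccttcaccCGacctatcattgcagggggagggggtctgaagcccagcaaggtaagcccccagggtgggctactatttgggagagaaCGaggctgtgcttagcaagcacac
The Hoxa5 promoter held 28 CG pairs and the Hoxa7 promoter 7. By the offset between the builds, the Hoxa5 stretch lies just before the counted gene, but the Hoxa7 stretch lies inside the counted gene. These CG counts thus set an outer start site against an internal one. Of the 39 genes, 22 had a promoter entry, with a median of 12.5 CG pairs, against 6 for all 32851 promoters of the same length. The median was 12.5 both for the 12 members at 1 CPM or more and for the 10 below it. On both strands, the Stat motif TTCNNNGAA was found in 1 of the 22 genes, against 7.02% of all promoters. The Smad palindrome GTCTAGAC was found in 0, against 0.167%. The Smad box CAGACA, whose letters partly overlap those of the palindrome, was found in 3, against 17.1%. The Pbx-Hox motif TGATTNAT was found in 2, against 2.82%. A member counted if any of its entries held the motif, while the shares of all promoters are per entry. Hoxa10, counted for the Smad box, and Hoxd11, counted for the Pbx-Hox motif, each had another entry without it. Neither printed promoter held any of these motifs. A match is a description of the letters, not a bound site.

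Between the first and last base of the clusters, 47 other genes are annotated, of which 29 had no count and 5 reached 1 CPM. By summed count the highest 3 were antisense or intergenic long noncoding RNAs. Hoxb3os, which runs opposite to Hoxb2 and Hoxb3, was at 3.28 CPM with Osm, 2.5 CPM with TGF-beta1 and 2.55 CPM with vehicle. Hotairm1, a noncoding RNA at the head-side end of Hoxa, was at 2.36, 2.55 and 1.96 CPM in the same libraries. Hoxd3os1 was at 1.67 CPM with Osm, 1.3 CPM with TGF-beta1 and 1.90 CPM with vehicle. The intervals of all 3 included 1 in each comparison, so none differed beyond counting error. Hotair, the noncoding RNA of the tail side of Hoxc that is known from human foot skin fibroblasts, had 0 counts in every library, as did the even-skipped homologues Evx1 and Evx2 that border the tail ends of Hoxa and Hoxd.

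The genes outside the clusters were taken as the 5 nearest protein-coding genes at 1 CPM or more on each side, 40 in all. With Osm none of them passed the 1.5-fold rule, against 3.76% of all genes, with ratios to vehicle from 0.747 to 1.11. With TGF-beta1, 5 passed it, against 15.5% of all genes. Cycs (1.54), which encodes cytochrome c, and Atp5g1 (1.51), a subunit of ATP synthase, were higher. Gngt2 (0.390), Abi3 (0.544) and Calcoco1 (0.590) were lower, Gngt2 past 2-fold. Gngt2 and Abi3 overlap each other, so their reads are uncertain.

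Proteins that work with or on Hox genes were also measured, and the shares of all genes given above apply to each list. All 9 genes of the Pbx, Meis and Pknox families were at 1 CPM or more in at least 1 library. Meis2 was at 62.2 CPM with Osm, 56.9 CPM with TGF-beta1 and 60.3 CPM with vehicle. The median log2 ratio of the 9 was 0.04 for Osm over vehicle and -0.08 for TGF-beta1 over vehicle, and none passed 2-fold. At 1.5-fold 1 of the 9 was higher with TGF-beta1, against 6.01% of all genes, namely Pknox2 at 62.9 CPM, against 39.5 CPM with vehicle (ratio 1.59, 1.45 to 1.75), while Pknox1 was at 24.1 CPM with TGF-beta1 and 31.1 CPM with vehicle (0.775, 0.683 to 0.879). The Hox partners had reads in all 3 libraries, with the 2 Pknox genes on opposite sides of vehicle in the TGF-beta1 library.

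All 30 Polycomb genes reached 1 CPM in at least 1 library. Their median log2 ratios were -0.01 for Osm over vehicle and 0.04 for TGF-beta1 over vehicle. None passed 2-fold with TGF-beta1, and 3 were at least 1.5-fold lower, against 9.53% of all genes, the chromobox genes Cbx2, Cbx6 and Cbx7, whose products read methylated histone H3. Cbx6 was at 237.5 CPM with Osm, 151.0 CPM with TGF-beta1 and 239.6 CPM with vehicle (ratio of TGF-beta1 over vehicle 0.630, 0.601 to 0.661). Cbx7 was at 12.2 CPM with Osm, 6.13 CPM with TGF-beta1 and 10.4 CPM with vehicle (0.591, 0.464 to 0.749). For both the TGF-beta1 library was the low one. With Osm, Phf19 was the one member past 2-fold, lower at 0.807 CPM, against 1.85 CPM with vehicle, and it was named after its values were seen, as was Cbx2. Of the 13 Trithorax and H3K27 demethylase genes none passed 1.5-fold in either comparison with vehicle. Kmt2a, the methyltransferase that maintains Hox expression, was at 146.3 CPM with Osm, 129.6 CPM with TGF-beta1 and 132.3 CPM with vehicle. None of the 8 genes of chromatin architecture and geminin passed 1.5-fold either. Ctcf, whose product insulates Hox domains, was at 62.2, 60.6 and 64.7 CPM in the Osm, TGF-beta1 and vehicle libraries.

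Retinoic acid genes had more 2-fold calls with TGF-beta1 than the other lists, mostly at low levels. Of 19 genes 14 were at 1 CPM or more in at least 1 library. With TGF-beta1 3 of them were past 2-fold higher than with vehicle and 1 past 2-fold lower, against 2.27% and 4.79% of all genes. Among genes at 5 CPM or more these shares were 1.15% and 2.84%. The lower one was Rbp4, the plasma retinol carrier, at 5.30 CPM with Osm, 2.33 CPM with TGF-beta1 and 5 CPM with vehicle. The higher ones, named after their values were seen, were the receptor gene Rarb and the binding protein genes Crabp1 and Crabp2. All 3 were under 5 CPM in every library. Rarb, itself a retinoic acid target, was at 4.38 CPM with Osm, 4.72 CPM with TGF-beta1 and 1.85 CPM with vehicle, with ratios of 2.37 for Osm over vehicle (1.56 to 3.66) and 2.55 for TGF-beta1 over vehicle (1.70 to 3.92). Crabp2 was at 0.403 CPM with Osm, 3.69 CPM with TGF-beta1 and 0.217 CPM with vehicle. It reached 1 CPM with TGF-beta1 alone, and Crabp1 was under 1 CPM with vehicle. The filter thus admitted both genes through libraries where they were higher. Rarb was the one gene of the list past 2-fold with Osm. Aldh1a3, which encodes an enzyme that makes retinoic acid, was at 122.6 CPM with Osm, 157.3 CPM with TGF-beta1 and 164.3 CPM with vehicle. Its ratio of Osm over vehicle was 0.746 (0.706 to 0.789), and that of TGF-beta1 over vehicle 0.957 (0.909 to 1.01).

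Transcription factors that mark position outside the Hox clusters gave 22 of 46 genes at 1 CPM or more. Of these, 1 passed 2-fold with either ligand, Irx2, which stood at 0.922 CPM in the Osm library, 1.57 CPM in the TGF-beta1 library and 0.272 CPM in the vehicle library. Irx2 thus met the filter of 1 CPM through the TGF-beta1 library alone. At 1.5-fold TGF-beta1 had 2 higher, Irx2 and Irx3, and 2 lower, En1 and Prrx1, of which all but Prrx1 were named after their values were seen. Prrx1, a homeobox gene of limb and body wall mesenchyme, was at 307.8 CPM with Osm, 200.8 CPM with TGF-beta1 and 321.6 CPM with vehicle (ratio of TGF-beta1 over vehicle 0.624, 0.599 to 0.651). Tcf21, a regulator of visceral mesenchyme, was at 11.9 CPM with Osm, 9.39 CPM with TGF-beta1 and 13.2 CPM with vehicle (0.714, 0.584 to 0.871). Of the 6 genes of the ParaHox and Cdx families, sister genes of the Hox genes, none reached 1 CPM and 5 had no count.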

How the data were processed

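RNA sequencing of 3 libraries was analysed, 1 per condition, grouped by sample title and treatment label. Per the labels' protocols, polyadenylated RNA was copied with random primers. The protocols describe stranded and unstranded kits without saying which was used. The authors deposited 2 tables of the same genes, whole-number read counts and FPKM values. Build mm39 and the tools HISAT2, HISAT, TopHat2 and CASAVA are named in the submitters' processing notes. The sources used here do not name the read counter. The deposited FPKM values equal counts over gene length and over the DESeq2-scaled library size, with a largest relative difference of 4.17e-07.

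The deposited counts were turned into CPM by TMM scaling (edgeR 4.0.16, R 4.3.3). The comparisons used the 13712 genes that reached 1 CPM in any library. Ratios carry the exact 95% interval of a conditional binomial (Clopper-Pearson). A prior count of 0.5 entered log2 ratios only. No p-value was computed, since the spread between cultures cannot be estimated from 1 library per condition. Alternatives were DESeq2 1.42.0 size factors, totals without TMM, FPKM, other filters, a prior count of 2 and a 1.5-fold threshold. Other software was matplotlib 3.10.9, pandas 2.3.3, scipy 1.17.1 and numpy 2.4.6 under Python 3.11.15, and the interval was tested on simulated data.

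The members and lists were chosen with earlier results of these data known. Named were members at 5 CPM or more or past the 2-fold rule. Of each other list up to 4 genes per comparison with vehicle were taken, the 2 largest ratios at 5 CPM or more and the 2 most abundant. Of other genes inside the clusters the 3 highest by count were taken, and of flanking genes those past 1.5-fold. Sequences come from RefSeq and GENCODE tables of an earlier build, and gene positions from the deposited table. Some genes of the members and lists are not reported here by name, though counts and sums over the lists include them.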

Additional observations from a re-analysis of the deposited data

How the results depend on the processing

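The Hox counts moved with the filter on low levels and with the threshold. Without a filter, 1 member was at least 2-fold different for TGF-beta1 over vehicle and 1 for Osm over TGF-beta1, Hoxb9 in both, and the median log2 ratio of TGF-beta1 over vehicle was 0.13. With at least 5 CPM required, 0 members were 2-fold different for Osm over vehicle, since Hoxa10 was left out, and the median for TGF-beta1 over vehicle was 0.066. With that filter the medians of Osm over vehicle and Osm over TGF-beta1 turned to -0.02 and -0.01. At 1.5-fold, 1 member was called for Osm over TGF-beta1, Hoxa9. The other 33 alternative values of the counts and medians, these 2 medians among them, stayed within 1.5 times the count or, for medians, within the counting error of the members' summed reads. For single genes, all 180 alternative log2 ratios of the named Hox genes kept their sign, and the largest shift was 0.278. These used the size factors of DESeq2, count totals alone, a prior count of 2 and the authors' FPKM. Whether each interval still excluded 1 is not given. Intervals that end near 1 could cross it, such as Hoxa5 for TGF-beta1 over vehicle (1.01 to 1.35) and Hoxc4 for Osm over TGF-beta1 (0.725 to 0.993). No paired analysis was possible because there was 1 library per condition and the labels give no shared replicate numbers, and no replicate could be left out. Depth limits the members under 1 CPM, for which no more than 18 counts were seen in a library.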
